A study of Mus musculus with 12 samples.

Results

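Histone and DNA modifying enzymes are the proteins that place acetyl and methyl groups on histones and on cytosine, or remove them. The genes described here were chosen by name: those whose single symbol on the array began with Hdac, Sirt, Kdm, Kmt2, Dnmt, Setd, Ehmt or Ezh, and the 3 Tet genes. The rule found 63 of the 18193 genes with a single symbol, and each was represented by its probe set of highest average across all 12 arrays. By family these were 4 class I, 4 class IIa, 2 class IIb and 1 class IV histone deacetylases, 7 sirtuins, 2 flavin-dependent and 16 JmjC histone demethylases, 5 MLL family methyltransferases, 10 Setd and Setdb genes, the 2 genes of G9a and GLP, 3 genes beginning with Ezh, 4 Dnmt genes and 3 Tet genes. A prefix also gathers genes whose products are not enzymes: Ezhip encodes an inhibitor of the Polycomb methyltransferase complex, and Dnmt3l a cofactor without catalytic activity.

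The tissue came from male Swiss mice, an outbred stock, that drank ethanol by free choice. From 6 weeks of age they had bottles with 5% ethanol, 10% ethanol and water through 10 weeks of acquisition, 2 weeks of withdrawal, 2 weeks of reinstatement and 2 weeks with quinine at 0.005 g/L in the ethanol, and then 1 more week of free choice. Per the labels the procedure took 16 weeks and the mice were 22 weeks old when it ended. Inflexible drinkers preferred ethanol at every stage, bitter quinine included, and had a mean blood ethanol of 113 ± 11.3 mg/dL (kind of error not stated). Light drinkers drank more water than ethanol and had 48 ± 13.3 mg/dL. The 4 groups were inflexible drinkers' prefrontal cortex, light drinkers' prefrontal cortex, inflexible drinkers' striatum and light drinkers' striatum, with 3 arrays each. Both classes had drunk ethanol, and no water-only group was analysed here. The labels give 1 RNA pool concentration per group, so the 3 arrays of a group may be hybridisations of a single pool, and p-values then measure only the spread between arrays.

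As background, acetyl groups on histone tails loosen chromatin and mark genes in use. Histone deacetylases remove them, with zinc in the classical classes and with NAD in the sirtuins. Methyl groups on histones mark active or silent genes depending on the lysine they sit on, and are written by SET domain enzymes and erased by flavin-dependent and JmjC demethylases. Dnmt enzymes methylate cytosine, mostly where a C precedes a G, and Tet enzymes oxidise that mark as a first step of its removal. In the adult brain these enzymes take part in the lasting control of genes by neuronal activity, and inhibitors of several of them alter ethanol drinking in rodents.

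The sequence at the start sites of the genes counted here holds the dinucleotide CG, at whose cytosine the Dnmt and Tet enzymes mostly act. RefSeq windows of 300 bases on GRCm38.p6, most of each lying before the start, were at hand for 52 of the 63 genes, and the 40 with a single window were counted. The dinucleotide CG, which reads the same on both strands, occurred a median of 22 times in these 40 windows, against 17 times in 11721 genes of the array with a single window. At least 20 occurrences were found in 60.0% of the 40 windows, against 43.3% of the 11721. The share was 76.2% (median 27) in 21 genes with a mean log2 level above 4. In the 19 genes at or under 4 it was 42.1% (median 17), near that of the 11721, which were not split by level. The window of Tet2, the cytosine oxidase gene that is among the leading differences in prefrontal cortex, is shown first as one of the densest, with 57 occurrences. The window of the activity-responsive deacetylase gene Hdac5 held 18, and that of Ezhip, a gene at the floor of the array's scale, held 5. Capitals mark each CG, and sequences run 5′ to 3′ on the gene's strand.
Tet2, chr3:133544341-133544640, minus strand: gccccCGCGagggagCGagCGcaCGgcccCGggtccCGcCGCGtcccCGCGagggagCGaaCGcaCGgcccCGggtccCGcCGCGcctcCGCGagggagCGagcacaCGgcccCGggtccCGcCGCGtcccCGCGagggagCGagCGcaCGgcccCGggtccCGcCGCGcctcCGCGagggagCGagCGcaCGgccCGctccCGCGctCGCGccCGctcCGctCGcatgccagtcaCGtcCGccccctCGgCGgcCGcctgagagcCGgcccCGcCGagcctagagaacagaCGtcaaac
Hdac5, chr11:102230123-102230422, minus strand: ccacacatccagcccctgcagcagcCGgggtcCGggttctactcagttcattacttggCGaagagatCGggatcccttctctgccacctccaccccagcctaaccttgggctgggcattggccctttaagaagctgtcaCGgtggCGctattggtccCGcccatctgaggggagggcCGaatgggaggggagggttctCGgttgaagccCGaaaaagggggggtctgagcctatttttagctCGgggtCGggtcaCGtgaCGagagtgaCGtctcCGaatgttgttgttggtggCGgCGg
Ezhip, chrX:6083371-6083670, minus strand: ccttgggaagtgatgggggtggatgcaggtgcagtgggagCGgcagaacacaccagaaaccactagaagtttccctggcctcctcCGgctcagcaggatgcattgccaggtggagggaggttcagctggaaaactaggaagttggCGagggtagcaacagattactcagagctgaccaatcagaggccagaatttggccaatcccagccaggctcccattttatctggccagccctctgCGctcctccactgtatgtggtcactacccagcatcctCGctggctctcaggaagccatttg
The 40 windows ranged between 1 (Setd5) and 65 (Kdm7a) occurrences, so these 3 lie near the top, near the middle and near the bottom. The arrays measured RNA and not methylation, so a CG here is a description of the sequence and no statement on whether it was methylated.

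All levels below are deposited log2 values, and differences are log2 differences with their standard errors. Levels of different genes come from different probes, so a level serves only to pick the probe set and genes shown and to set the limit of 4 used below. The mean over 12 arrays was above 4 for 36 of the 63 genes and at or below 4 for the other 27. The lowest value on any array was 2.76, so a level near 3 lies at the floor of the scale and a difference there is understated. The genes at the floor included Ezhip, Kdm4d, Dnmt3l, Sirt4, Kdm8, Dnmt3b and Hdac8. More than 1 probe set was present for 38 genes, 147 probe sets in all, and 14 genes had a second one above 4.

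One feature of the arrays touches many of the values. The spiked hybridisation controls were high on 5 arrays (means 8.36 to 9.30) and low on 7 (6.47 to 7.06). The high ones, called high-control arrays below, were replicate 2 of inflexible prefrontal cortex, replicate 2 of light prefrontal cortex, replicates 1 and 3 of inflexible striatum and replicate 1 of light striatum. The labels name no batch, and where this split comes from is not known. The 3′ minus 5′ signal of actin, a measure of RNA integrity, was 2.13 to 2.75 on high-control and 2.07 to 2.49 on low-control arrays, and that of Gapdh was 0.841 to 1.13 and 0.524 to 1.06. Of the 3 arrays of a group 1 or 2 were high-control, so a comparison at one control level can rest on single arrays, which is said beside each value. As a check of the labelled regions, 17 of 17 measured medium spiny neuron markers were called higher in inflexible striatum than in inflexible prefrontal cortex, and 16 of 17 in light striatum than in light prefrontal cortex (limma, adjusted p under 0.05). Cortical excitatory neuron markers were mixed: 4 of 14 were called lower and 0 higher in inflexible striatum, and 5 lower and 2 higher in light striatum.

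The first comparison asked whether chromatin enzyme transcripts differed between inflexible and light drinkers in prefrontal cortex. None of the 63 genes passed the test: limma called 0 at an adjusted p under 0.05, against 0.826% of the 45037 probe sets tested, and the smallest adjusted p was 0.388, for Dnmt3a. An unadjusted p under 0.05 was reached by 3 genes, Dnmt3a, Ehmt2 and Tet2, all lower in inflexible drinkers. That is 4.76% of the 63, against 7.61% of all probe sets. The members' median difference was -0.05, beside 0.00 over all 18193 genes, and it was -0.01 without replicate 2 of inflexible prefrontal cortex, a high-control array. Among genes above 4, the difference was negative for 25 of 36 (69.4%), beside 49.4% of 6593 genes, and for 22 to 29 of the 36 when 1 array was left out, the fewest without that same array.

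**Figure D1:**
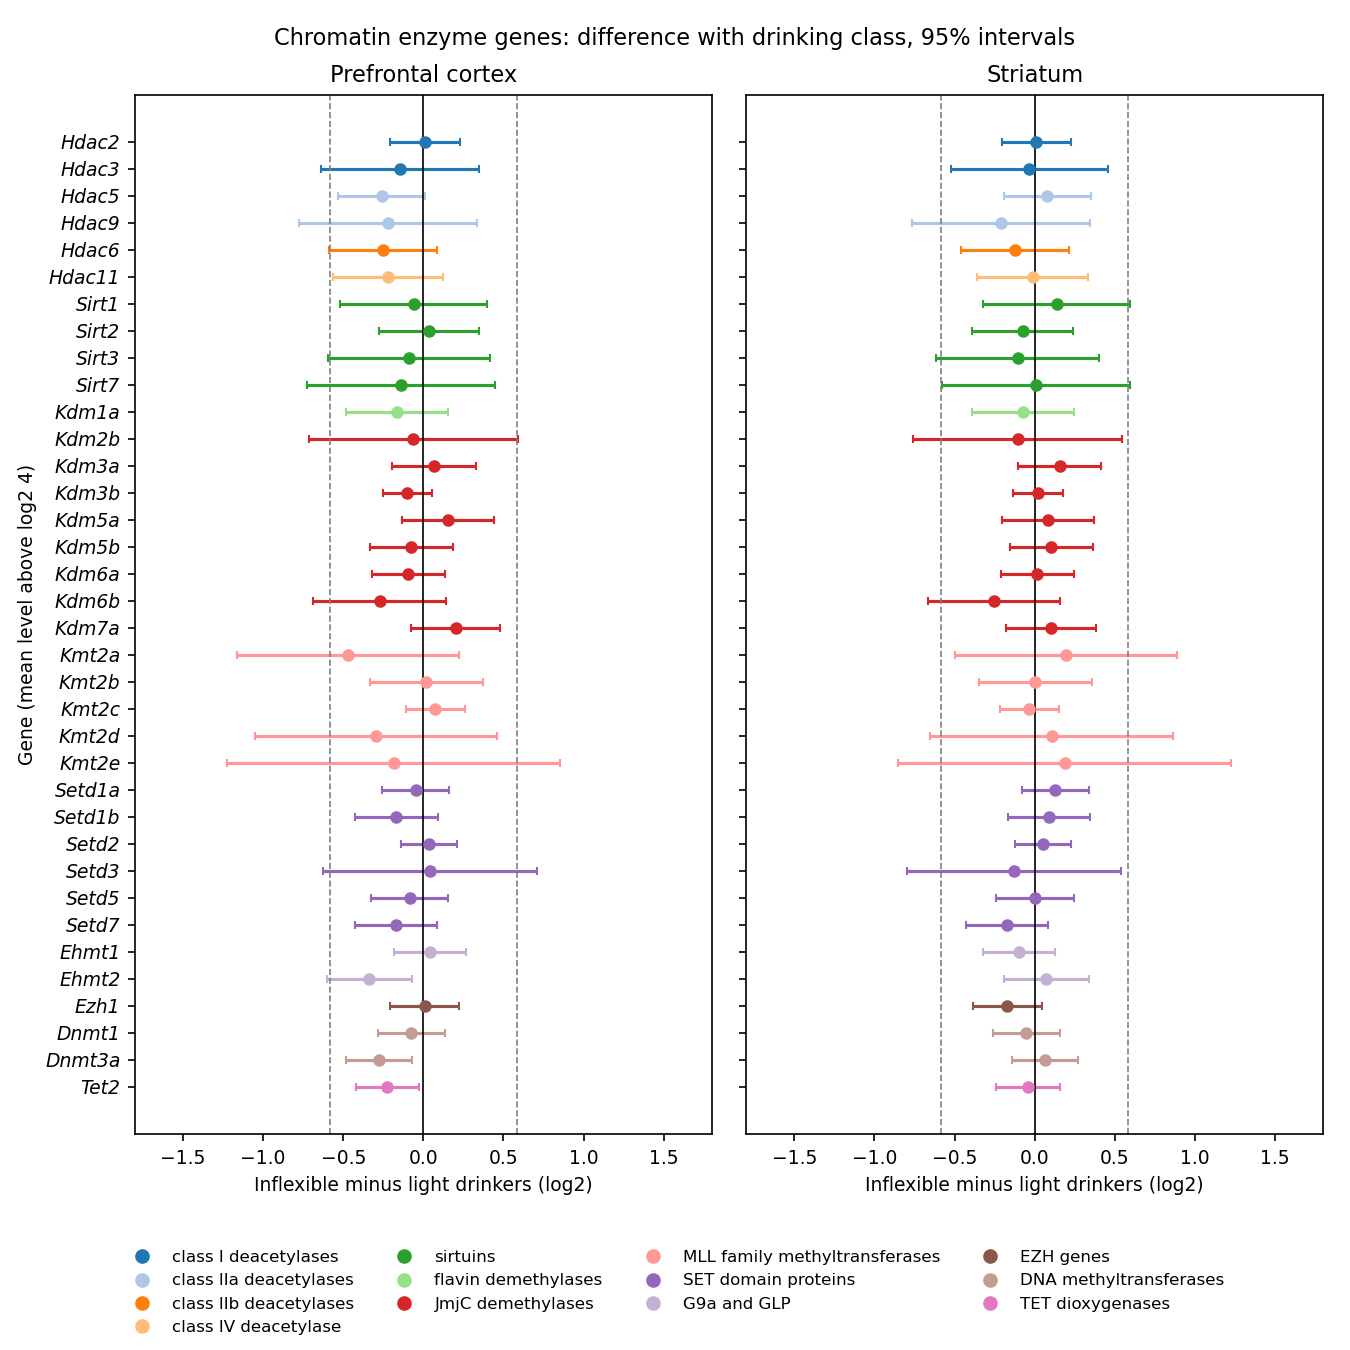
Differences between inflexible and light drinkers (log2, x axis) with 95% intervals for the 36 genes with a mean level above 4, in prefrontal cortex (left) and striatum (right), ordered and coloured by family. Dashed lines mark a 1.5-fold difference either way. In prefrontal cortex 25 of the 36 points lie left of 0 and in striatum 16, and no gene passed the test in either region.

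Dnmt3a encodes a methyltransferase that places new methyl groups on DNA and stays active in adult neurons. Its level was 5.13, 4.89 and 5.01 on the inflexible prefrontal arrays, against 5.38, 5.08 and 5.39 on the light ones. The low light array, replicate 2, lay within the range of the inflexible arrays, so the groups overlapped. The difference was -0.28 ± 0.09 (limma, adjusted p = 0.388, 95% interval -0.48 to -0.07). Its 3 further probe sets above 4 gave -0.10 ± 0.27, -0.22 ± 0.12 and -0.31 ± 0.18. On the low-control arrays alone the difference was -0.32 ± 0.05 (limma, adjusted p = 0.0514) with 2 arrays of each class, and -0.19 between the single high-control array of each class.

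The other Dnmt genes showed smaller differences. Dnmt1, which copies methylation to the new strand after replication, stood at 4.66, 4.48 and 4.68 in inflexible drinkers, against 4.75, 4.60 and 4.70 in light drinkers (difference -0.08 ± 0.09). Dnmt3b, which also methylates unmarked DNA, and the cofactor gene Dnmt3l lay near the floor of the scale, at 3.06 and 2.96 in inflexible drinkers, against 3.05 and 2.94 in light drinkers.

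All 3 Tet genes had a lower mean in inflexible drinkers, and none passed the test. Tet2 was at 4.76, 4.56 and 4.78 on the inflexible arrays, against 4.80, 5.01 and 4.97 on the light arrays. Each inflexible array was below each light array, a separation that 12.9% of all probe sets showed in one direction or the other. The difference was -0.22 ± 0.09 (limma, adjusted p = 0.539), and a second probe set gave -0.17 ± 0.08. It was -0.11 ± 0.06 on low-control arrays alone (2 of each class) and -0.45 between the single high-control array of each class, which has no replicate. Tet1 and Tet3, at 3.57 and 3.44 in inflexible drinkers, against 3.67 and 3.57 in light drinkers, were below the level of 4.

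Ehmt2 encodes G9a, which methylates histone H3 at a lysine that marks silent genes. Its level was 5.45, 5.19 and 5.17 on the inflexible arrays, against 5.69, 5.49 and 5.64 on the light arrays. The 3 inflexible arrays were again below the 3 light arrays, and the difference was -0.34 ± 0.12 (1.26-fold lower, limma, adjusted p = 0.439). Its other probe set, near the floor at 3.15, gave 0.06 ± 0.08. The value of the first probe set was -0.36 ± 0.14 on low-control arrays alone (2 of each class) and -0.30 between the single high-control arrays. Ehmt1, whose product GLP pairs with G9a, stood at 5.19, 5.13 and 5.17 in inflexible drinkers, against 5.17, 5.01 and 5.19 in light drinkers, a difference of 0.04.

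Groups of arrays did not overlap for 4 of the 63 genes, 6.35% against 12.9% of all probe sets. These were Ehmt2, Tet2, Kdm4b and Sirt4, each lower in inflexible drinkers, and Kdm4b and Sirt4 were below the level of 4. No gene had all inflexible arrays above all light arrays.

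Class IIa deacetylases carry signals between cytoplasm and nucleus when neurons are active. The 4 genes all had a lower mean in inflexible drinkers, with differences of -0.26 to -0.06, and 0 of 4 passed the test. Hdac5 was at 4.89, 4.42 and 4.74 in inflexible drinkers, against 5.06, 4.75 and 5.03 in light drinkers. Replicate 2, the high-control array, was the lowest of each group, and the groups overlapped. The difference was -0.26 ± 0.12 (limma, adjusted p = 0.689), beside -0.23 ± 0.06 on low-control arrays alone (2 of each class) and -0.33 between the single high-control arrays.

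None of the remaining deacetylases came near the threshold. Hdac6, a mostly cytoplasmic enzyme that deacetylates tubulin, stood at 4.48, 3.98 and 4.35 in inflexible drinkers, against 4.66, 4.23 and 4.68 in light drinkers (difference -0.25 ± 0.15, limma, adjusted p = 0.865). Hdac11, the single class IV gene, stood at 5.23, 4.72 and 5.17 in inflexible drinkers, against 5.49, 4.97 and 5.31 in light drinkers (-0.22 ± 0.15). The high-control replicate was the lowest of each group for both genes. Hdac2, a class I enzyme of the nuclear corepressor complexes, stood at 5.91, 6.04 and 5.96 in inflexible drinkers, against 5.94, 6.08 and 5.86 in light drinkers. Its 95% interval, from -0.21 to 0.23, lay wholly within a 1.5-fold difference either way. The sirtuins had differences between -0.14 and 0.12, with 0 of 7 called. Sirt2, a deacetylase abundant in myelinating cells, stood at 5.39, 5.15 and 5.17 in inflexible drinkers, against 5.35, 4.85 and 5.39 in light drinkers.

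Among methyltransferases, the MLL family writes the methyl mark of active promoters and enhancers. Kmt2a stood at 4.64, 5.00 and 4.32 in inflexible drinkers, against 4.90, 5.47 and 5.00 in light drinkers, the widest mean difference of the 36 genes above 4 in this region (-0.47 ± 0.31, limma, adjusted p = 0.906). The groups overlapped, with the high-control array highest in each. A second Kmt2a probe set with far less spread gave -0.21 ± 0.08 (limma, adjusted p = 0.521). In the same region Kmt2e stood at 5.95, 6.98 and 5.96 in inflexible drinkers, against 6.10, 7.33 and 6.02 in light drinkers (-0.19 ± 0.46). Setd7, which adds a single methyl group to histones and to other proteins, stood at 6.68, 6.44 and 6.60 in inflexible drinkers, against 6.78, 6.63 and 6.83 in light drinkers (-0.17 ± 0.11). Ezh1, a catalytic subunit of the Polycomb complex in non-dividing cells, stood at 4.72, 4.55 and 4.69 in inflexible drinkers, against 4.69, 4.47 and 4.78 in light drinkers, and Ezh2, its counterpart in dividing cells, lay near the floor at 3.26 in inflexible and 3.27 in light drinkers.

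Demethylases gave differences in both directions. Of the 16 JmjC genes, 6 had a higher and 10 a lower mean in inflexible drinkers, with a median of -0.02 and 0 called. Kdm7a, which erases methyl marks of silent chromatin, was at 5.28, 5.15 and 5.31 in inflexible drinkers, against 5.23, 4.83 and 5.07 in light drinkers, with overlapping groups and the largest positive difference among genes above 4 (0.20 ± 0.12, limma, adjusted p = 0.882). Its other probe set above 4 gave 0.21 ± 0.29. Kdm6b, an eraser of the Polycomb mark that is induced by signalling, stood at 4.46, 3.76 and 4.20 in inflexible drinkers, against 4.61, 4.15 and 4.48 in light drinkers (-0.27 ± 0.18). Kdm1a, the flavin-dependent demethylase of corepressor complexes, stood at 5.76, 5.30 and 5.58 in inflexible drinkers, against 5.84, 5.52 and 5.78 in light drinkers (-0.17).

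**Figure D2:**
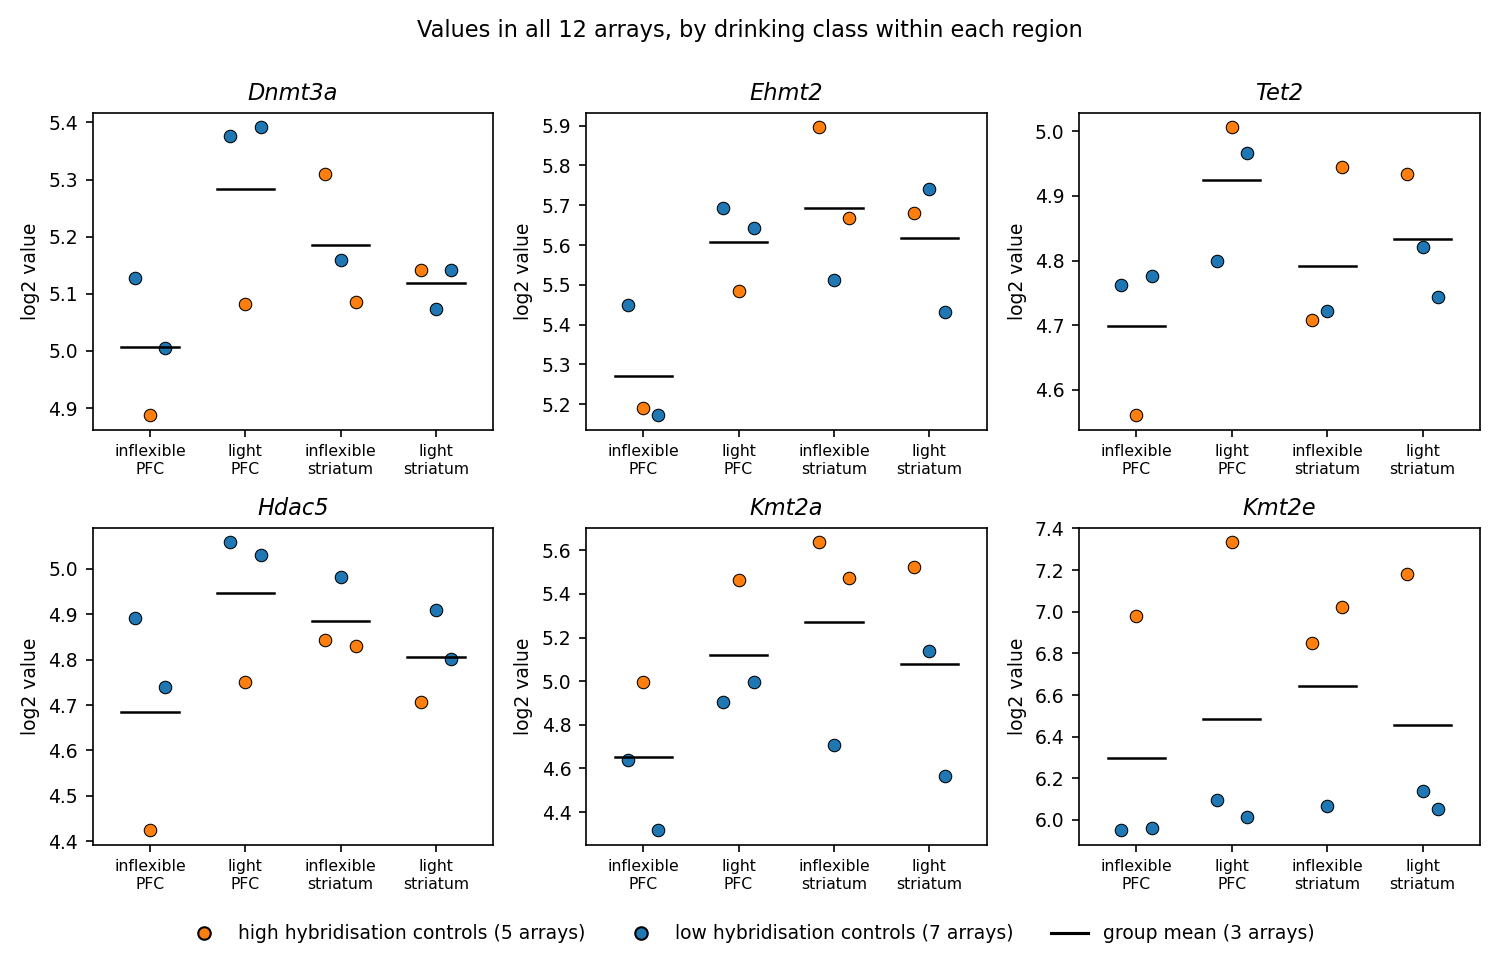
Log2 value (y axis, scale differs by panel) on each of 12 arrays for Dnmt3a, Ehmt2, Tet2, Hdac5, Kmt2a and Kmt2e, with group means as bars and high-control arrays in orange. Ehmt2 and Tet2 are lower on all 3 inflexible than on all 3 light prefrontal arrays, and Kmt2e is at 6.85 or above on the 5 high-control arrays and at 6.14 or below on the other 7.

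The intervals show how closely each difference was measured between these arrays, without adjustment for the number of probe sets. If the 3 arrays of a group share 1 RNA pool, the intervals do not bound a difference between mice. Among all probe sets above 4, the smallest difference called was 0.20 in prefrontal cortex and 0.52 in striatum, in either direction. Among the 36 genes above 4, the 95% interval lay wholly within 1.5-fold for 24 in prefrontal cortex (66.7%, beside 72.6% of 6593 genes) and for 26 in striatum (72.2%, beside 80.8%). Standard errors of these 36 genes had a median of 0.12, from 0.07 for Kdm3b to 0.46 for Kmt2e. With arrays weighted by their agreement with the fit, 3 members were called lower in inflexible prefrontal cortex: Dnmt3a (-0.34 ± 0.05, limma, adjusted p = 0.0043), Ehmt2 (-0.40 ± 0.10, limma, adjusted p = 0.0398) and Hdac5 (-0.26 ± 0.06, limma, adjusted p = 0.0425). The same weights raised the share called among all probe sets to 6.56%.

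Markers of other cells moved in the same comparison. Medium spiny neuron markers were called higher in inflexible prefrontal cortex for 7 of 17, and their log2 values summed to 85.9 to 86.8, against 74.7 to 75.2 in light drinkers. Myelin markers were called higher for 6 of 14, with sums of 73.8 to 75.1 against 62.4 to 64.2 in light drinkers. Of 10 choroid plexus and ependyma markers 1 was called, Ttr, higher, and the sums were 38.1 to 39.6 against 30.9 to 31.1 in light drinkers. Immediate early genes, which follow neuronal activity, were called lower for 4 of 16, with sums of 76.6 to 77.5 against 80.5 to 82.7 in light drinkers. Interneuron markers were called lower for 2 of 14, microglia markers lower for 1 of 11, and astrocyte, vascular and oligodendrocyte precursor markers for 0 of 11, 10 and 6. Cortical excitatory neuron markers were called higher for 1 of 14, but their median difference was -0.17, and the sums were 75.5 to 79.4 against 78.1 to 80.9 in light drinkers. The part of these markers in the enzyme values was not tested, and in such tissue samples fewer cells of a type and less RNA per cell cannot be told apart.

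In striatum the same comparison between drinking classes called 0 of the 63 genes, beside 0.0111% of all probe sets, and the smallest adjusted p was 1.00. An unadjusted p under 0.05 was reached by 1 gene, Ezh2 (0.11 ± 0.05), whose level of 3.39 in inflexible and 3.28 in light drinkers lay near the floor. That is 1.59% of members, beside 3.53% of all probe sets. The median difference was 0.01, and 16 of the 36 genes above 4 had a negative one (44.4%, beside 53.7% of 6593 genes). Arrays of the classes overlapped for all 63 genes, where 7.84% of all probe sets had groups that did not.

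The 8 genes above 4 with the smallest p here came from 5 families, and 3 of them were JmjC demethylases. Ezh1 stood at 4.39, 4.66 and 4.63 in inflexible drinkers, against 4.65, 4.82 and 4.73 in light drinkers (-0.17 ± 0.10). Setd7 stood at 6.21, 6.58 and 6.65 in inflexible drinkers, against 6.54, 6.72 and 6.70 in light drinkers (-0.17 ± 0.11). For both genes the first inflexible array was the lowest of the 6 and the others overlapped with the light arrays. Setd1a, a writer of the active promoter mark whose human counterpart is a risk gene for schizophrenia, stood at 4.24, 4.04 and 4.23 in inflexible drinkers, against 4.14, 4.08 and 3.91 in light drinkers (0.13 ± 0.09). Ehmt1 stood at 5.01, 5.19 and 4.97 in inflexible drinkers, against 4.93, 5.17 and 5.35 in light drinkers (-0.10 ± 0.10).

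The 3 JmjC genes did not share a direction. Kdm6b stood at 4.20, 4.60 and 4.29 in inflexible drinkers, against 4.47, 4.64 and 4.74 in light drinkers (-0.26 ± 0.18), while its other probe set above 4 gave 0.03 ± 0.11. Kdm3a, which erases a silencing mark, stood at 4.95, 5.21 and 4.91 in inflexible drinkers, against 4.72, 4.89 and 5.00 in light drinkers (0.16 ± 0.12). With the control split as a block the Kdm3a difference was 0.24 ± 0.04 (limma, adjusted p = 0.0747), the smallest among members for this comparison in that fit. Kdm5b, an eraser of the active promoter mark, stood at 5.00, 5.05 and 4.96 in inflexible drinkers, against 4.80, 4.80 and 5.09 in light drinkers (0.10 ± 0.12). Hdac9, a class IIa gene, stood at 3.85, 3.80 and 4.40 in inflexible drinkers, against 4.50, 4.13 and 4.04 in light drinkers (-0.21 ± 0.25).

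The other leading members of the families overlapped between the classes in striatum. Dnmt3a stood at 5.31, 5.16 and 5.09 in inflexible drinkers, against 5.14, 5.07 and 5.14 in light drinkers (0.07 ± 0.09). Tet2 stood at 4.71, 4.72 and 4.94 in inflexible drinkers, against 4.93, 4.82 and 4.74 in light drinkers (-0.04 ± 0.09). Ehmt2 stood at 5.90, 5.51 and 5.67 in inflexible drinkers, against 5.68, 5.74 and 5.43 in light drinkers (0.07 ± 0.12). These 3 genes, with differences of -0.34 to -0.22 in prefrontal cortex that did not pass the test, had differences of -0.04 to 0.07 here.

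Deacetylases and demethylases behaved likewise. Hdac2 stood at 5.79, 6.12 and 6.08 in inflexible striatum, against 5.85, 6.06 and 6.06 in light striatum. Hdac5 stood at 4.84, 4.98 and 4.83 in inflexible striatum, against 4.71, 4.91 and 4.80 in light striatum (0.08 ± 0.12). None of these had arrays of one class wholly above the other. Hdac6 stood at 4.27, 4.24 and 4.20 in inflexible striatum, against 4.22, 4.55 and 4.31 in light striatum. Hdac11 stood at 5.44, 5.29 and 5.29 in inflexible striatum, against 5.28, 5.48 and 5.30 in light striatum. The classes overlapped again in the 4 further leading genes. Kdm1a stood at 5.35, 5.70 and 5.35 in inflexible striatum, against 5.47, 5.70 and 5.44 in light striatum. Kdm7a stood at 5.22, 5.41 and 5.09 in inflexible striatum, against 4.93, 5.27 and 5.23 in light striatum. Sirt2 stood at 5.73, 5.43 and 5.47 in inflexible striatum, against 5.58, 5.71 and 5.57 in light striatum. Kmt2e, the last of them, stood at 6.85, 6.07 and 7.02 in inflexible striatum, against 7.18, 6.14 and 6.05 in light striatum, with the high-control arrays highest in each.

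Whether the drinking class difference itself differed between regions was tested as striatal minus prefrontal difference. It was called for 0 of the 63 genes, beside 0.313% of all probe sets, with a smallest adjusted p of 0.730. Dnmt3a (0.34 ± 0.13) and Ehmt2 (0.41 ± 0.17) had an unadjusted p under 0.05, 3.17% of members beside 5.62% of all probe sets. The class IIa gene Hdac5 gave 0.34 ± 0.17, the Tet genes 0.17 to 0.44 and Kmt2a 0.67 ± 0.44. The highest Tet value was that of Tet3, a gene below the level of 4. With the control split as a block, Hdac5 gave 0.42 ± 0.09, Tet3 0.34 ± 0.14 and Kmt2a 0.45 ± 0.21, and none of them was called. Of the 36 genes above 4, 24 had a more positive difference in striatum and 12 a more negative one (33.3%, beside 52.9% of 6593 genes). These counts share their arrays with the 25 of 36 negative differences in prefrontal cortex. Intervals were wider here, and 19 of the 36 lay wholly within 1.5-fold (52.8%, beside 46.7% of 6593 genes).

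Region was compared within each drinking class, as striatum minus prefrontal cortex. In inflexible drinkers 0 of 63 genes were called, beside 0.773% of all probe sets, and in light drinkers 0 of 63, beside 3.32%. An unadjusted p under 0.05 was reached by 9 genes in inflexible drinkers, 14.3% beside 7.40% of all probe sets: Kdm4b, Ehmt2, Ezh2, Tet3, Setd1b, Setd2, Setd1a and Kdm3a, higher in striatum, and Hdac9, lower. In light drinkers 5 did, 7.94% beside 11.4%: Hdac1, Sirt2 and Setd2, higher in striatum, and Hdac9 and Kdm3b, lower. Arrays did not overlap for 10 genes in inflexible drinkers, all higher in striatum (15.9%, beside 11.5% of all probe sets), and for 11 in light drinkers, 6 higher and 5 lower (17.5%, beside 16.3%). Each of these comparisons shares its arrays with the comparisons between drinking classes.

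The smallest adjusted p in inflexible drinkers belonged to Kdm4b, an eraser of silencing marks, and in light drinkers to Hdac1, a class I partner of Hdac2. Both had a mean level below 4. Kdm4b stood at 4.20, 3.98 and 4.18 in inflexible striatum, against 3.81, 3.70 and 3.69 in inflexible prefrontal cortex (0.38 ± 0.08, limma, adjusted p = 0.0851). In light drinkers it stood at 3.94, 4.17 and 3.88 in striatum, against 3.85, 3.82 and 3.90 in prefrontal cortex. Without replicate 2 of inflexible striatum Kdm4b and Tet3 passed the test in inflexible drinkers (0.731% of all probe sets did), and without replicate 2 of light striatum Kdm4b did (0.637%). The array left out in the first of these fits was the single low-control array of inflexible striatum. Tet3 was higher on high-control arrays by 0.28 ± 0.07 (limma, adjusted p = 0.0209), and its striatal difference of 0.43 ± 0.15 became 0.33 ± 0.10 with the control split as a block (limma, adjusted p = 0.170). Kdm4b was not called between control levels (0.01 ± 0.06), and with the block its difference was 0.38 ± 0.09 (limma, adjusted p = 0.0650). With the mean of each gene's probe sets as its value, Kdm4b was the 1 member called in inflexible drinkers, beside 1.70% of all genes. Hdac1 stood at 3.74, 3.70 and 3.55 in light striatum, against 3.49, 3.41 and 3.49 in light prefrontal cortex (0.20 ± 0.06, limma, adjusted p = 0.107). It passed without replicate 3 of light striatum, where 2.34% of all probe sets did. Sirt2 stood in light drinkers 0.42 ± 0.14 higher in striatum, and in inflexible drinkers 0.31 ± 0.14, and in both classes the arrays of the regions were apart. Myelin markers were called higher in striatum for 12 of 14 in light and 1 of 14 in inflexible drinkers, and their part in the Sirt2 values was not tested.

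With the control split as a block, 2 members were called in inflexible drinkers (2.16% of all probe sets) and 4 in light drinkers (7.00%). These genes were picked out after their values were seen. In the reported fit none of them was called between regions, and Hdac9 had adjusted p-values of 0.641 in inflexible and 0.381 in light drinkers (limma). Hdac9 stood at 3.85, 3.80 and 4.40 in inflexible striatum, against 4.47, 5.03 and 4.28 in inflexible prefrontal cortex, and at 4.50, 4.13 and 4.04 in light striatum, against 4.60, 5.21 and 4.63 in light prefrontal cortex. The high-control arrays were the highest of each prefrontal group, and with the block the striatal difference was -0.75 ± 0.13 (limma, adjusted p = 0.0258) in inflexible and -0.59 ± 0.13 (limma, adjusted p = 0.0270) in light drinkers. Low-control arrays alone gave -0.53 ± 0.07 in light drinkers, with 2 arrays of each region. In inflexible drinkers the single low-control striatal array against the 2 prefrontal ones gave -0.58, where the striatal array has no replicate. Only 1 Hdac9 probe set was above the level of 4, and the second, near the floor at 2.92, gave 0.02 ± 0.04 in inflexible and -0.09 ± 0.04 in light drinkers.

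Kdm3a was higher in striatum with the block, by 0.35 ± 0.04 (limma, adjusted p = 0.0019) in inflexible and 0.18 ± 0.04 (limma, adjusted p = 0.0175) in light drinkers. The reported fit gave 0.27 ± 0.12 (limma, adjusted p = 0.662) in inflexible and 0.18 ± 0.12 (limma, adjusted p = 0.750) in light drinkers. With the block Hdac4, a class IIa gene whose product represses transcription in neurons, was lower in light striatum (-0.27 ± 0.05, limma, adjusted p = 0.0139) and so was Dnmt1 (-0.20 ± 0.04, limma, adjusted p = 0.0265). In the reported fit neither was called there (limma, adjusted p = 0.487 for Hdac4 and 0.455 for Dnmt1). Hdac4 lay below the level of 4, and values of other Dnmt1 probe sets above 4 are not given for this comparison. Hdac4 stood at 3.65, 3.87 and 3.89 in light striatum, against 4.16, 3.90 and 4.15 in light prefrontal cortex, and Dnmt1 at 4.35, 4.51 and 4.58 in light striatum, against 4.75, 4.60 and 4.70 in light prefrontal cortex. The values of inflexible drinkers for Hdac4 overlapped between regions (3.80, 3.93 and 3.70 in striatum, against 3.96, 3.57 and 4.05 in prefrontal cortex). Low-control arrays alone called 4 in light drinkers (8.38% of all probe sets), Dnmt1, Dnmt3a, Hdac4 and Hdac9, each lower in striatum. Array weights called 5 in light drinkers (10.4% of all probe sets), Dnmt3a, Hdac1, Hdac4, Hdac9 and Kmt2c.

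**Figure D3:**
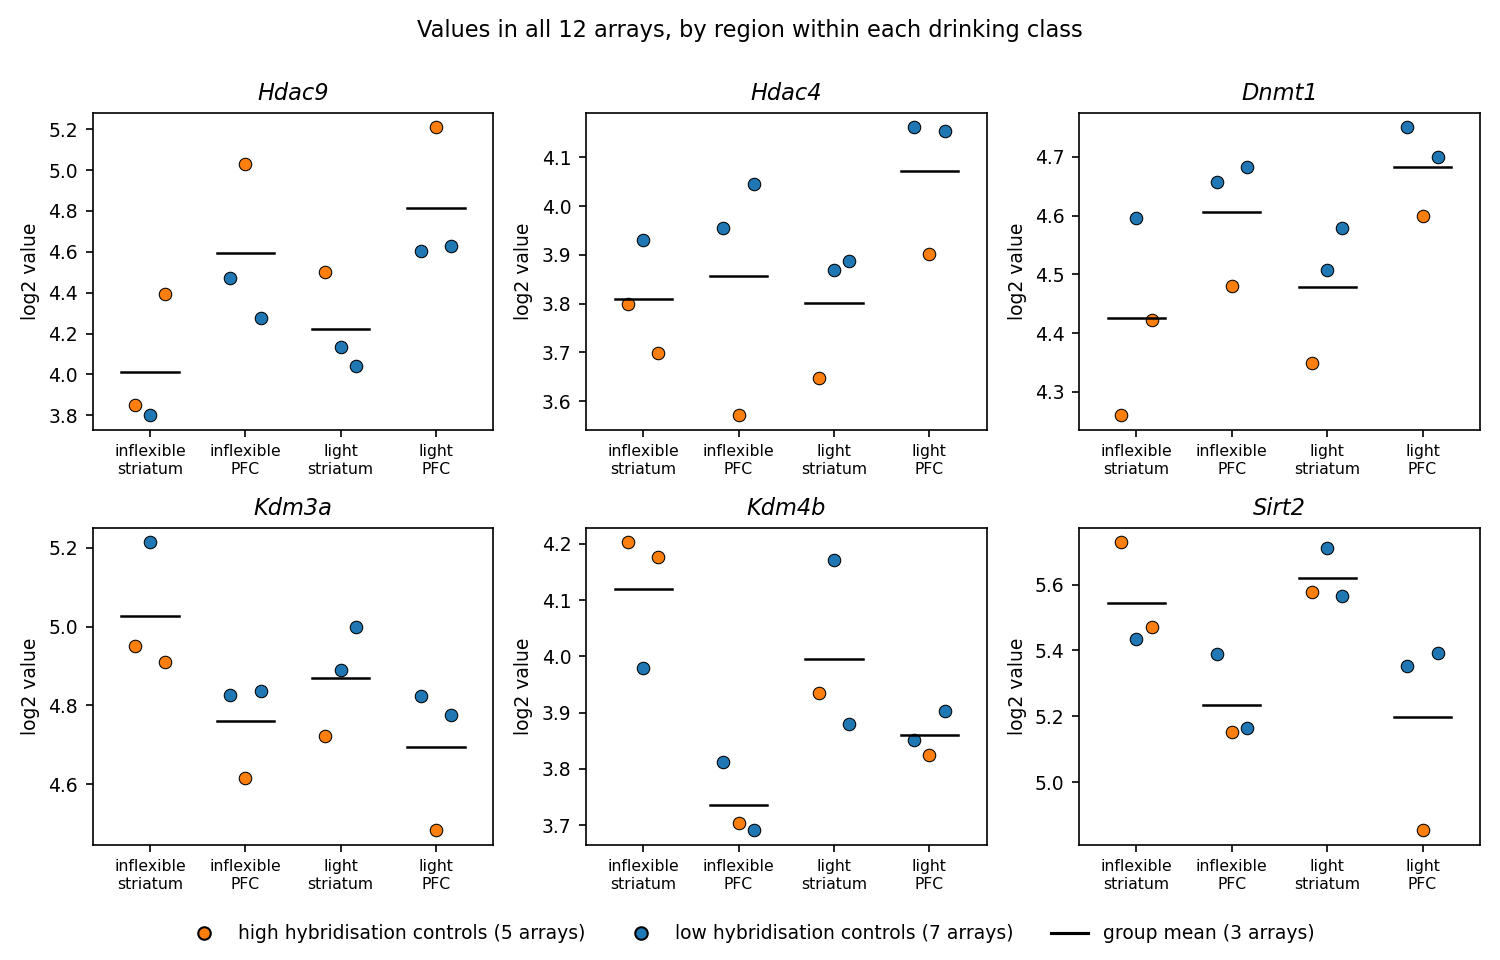
Log2 value (y axis, scale differs by panel) on each of 12 arrays for Hdac9, Hdac4, Dnmt1, Kdm3a, Kdm4b and Sirt2, with striatum left of prefrontal cortex in each drinking class, group means as bars and high-control arrays in orange. On low-control arrays of light drinkers, 2 of each region, Hdac9 is 0.53 lower in striatum, while the other comparisons at one control level include a group of 1 array.

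The largest differences in the enzyme genes ran between arrays with high and low hybridisation controls and not between groups of mice. With group and control split fitted together, 33 of 63 members were called between high-control and low-control arrays. Of these 9 were higher on high-control arrays (14.3%, beside 10.5% of all probe sets) and 24 lower (38.1%, beside 17.2%). Restricted to genes above 4, 21 of 36 were called (58.3%), beside 53.1% of 6593 genes above 4, so the members' share was near that of other genes at such levels. Inflexible striatum held 2 high-control arrays of 3 and each other group 1.

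Of the 5 MLL family genes 4 were higher on high-control arrays and 1, Kmt2b, lower. Kmt2e, whose product binds chromatin and has no clear methyltransferase activity of its own, had 6.85 as the lowest, 7.02 as the median and 7.33 as the highest value on the 5 high-control arrays, against 5.95, 6.05 and 6.14 on the 7 low-control arrays (1.06 ± 0.06, 2.09-fold higher). Kmt2d and Kmt2a were higher on high-control arrays by 0.70 ± 0.12 and 0.64 ± 0.11, and Kdm2a, a demethylase that binds unmethylated CG sequence, by 0.64 ± 0.07. On the low side, Kdm2b, its close relative, had a median of 3.67 on high-control arrays against 4.38 on low-control arrays (-0.67 ± 0.03), with no overlap. Setd3, an actin histidine methyltransferase, gave -0.66 ± 0.07, the nucleolar sirtuin Sirt7 -0.58 ± 0.06 and the mitochondrial sirtuin Sirt3 -0.51 ± 0.05. Each was called (limma, adjusted p under 0.05).

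Probe sets of 1 gene did not always differ alike between the high-control and low-control arrays. The other Kmt2e probe sets above 4 gave 0.02 ± 0.09, 0.24 ± 0.13 and -0.16 ± 0.05 between high-control and low-control arrays, where the first gave 1.06. For Kmt2a the second gave 0.09 ± 0.06, beside 0.64 for the first. The 4 Kmt2c probe sets gave 0.16, 0.38, -0.19 and -0.14. For Kdm1a, Dnmt1 and Hdac11 the probe sets above 4 differed in the same direction, all lower on high-control arrays.

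**Figure D4:**
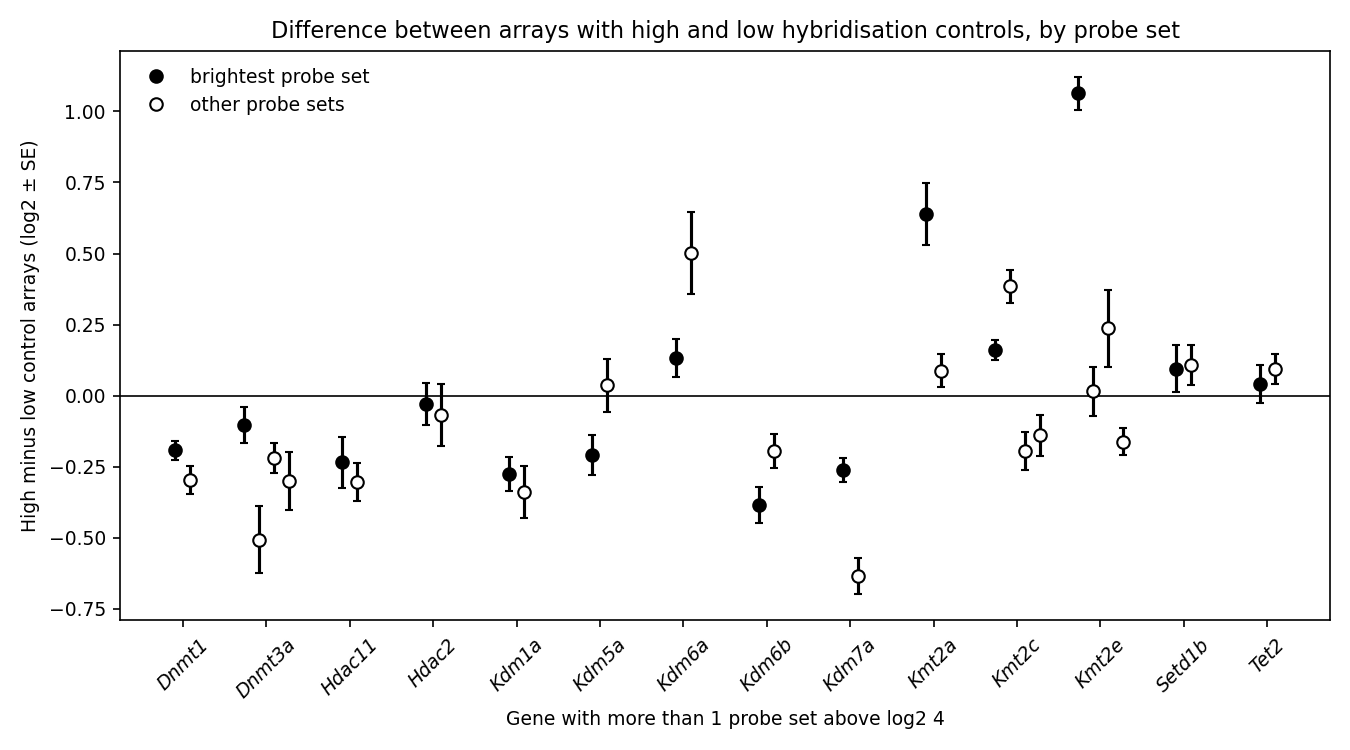
Difference between high-control and low-control arrays (log2 ± SE, y axis), adjusted for group, for every probe set above 4 of the 14 genes with more than 1 (x axis). Filled points are the probe set that represents the gene and open points the others. Kmt2e and Kmt2a have 1 probe set far above 0 and others near it, while the 4 probe sets of Dnmt3a all lie below 0.

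The split bore on how class differences of single genes were read. In striatum, where inflexible drinkers had 2 high-control arrays and light drinkers 1, Kmt2e was 0.19 ± 0.46 higher in inflexible drinkers and -0.17 ± 0.08 with the split as a block, and Kmt2a was 0.20 ± 0.31 and -0.02 ± 0.15. Neither was called in either fit. In prefrontal cortex both classes had 1 high-control array, so differences were the same in both fits and only their errors changed, to ± 0.15 for Kmt2a, against ± 0.31 without the block, and to ± 0.06 for Hdac5, against ± 0.12. The smallest adjusted p of a member with the block was 0.0707 in prefrontal cortex, for Hdac5, and 0.0747 in striatum.

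Genes that work beside these enzymes were set next to them. In the comparisons between drinking classes 0 genes were called among 15 histone acetyltransferases, 22 other histone methyltransferases, 8 other JmjC demethylases, 33 partners and readers of the marks, and 17 genes of DNA demethylation repair and cofactor supply, in either region. List medians lay between -0.07 and 0.04. In prefrontal cortex the nearest were Ahcy, which clears the by-product of methylation reactions, at 4.88 in inflexible and 4.58 in light drinkers (0.30 ± 0.07, limma, adjusted p = 0.107), and Kat2b, an acetyltransferase, at 4.73 and 4.55 (0.19 ± 0.05, limma, adjusted p = 0.201). The Y-linked JmjC gene Uty (0.23 ± 0.07), the arginine methyltransferase gene Prmt2 (-0.30 ± 0.14) and the deacetylase complex subunit Mta1 (-0.26 ± 0.13) led the other lists. In striatum the leading genes were Gadd45b, an activity-induced gene of DNA demethylation (0.17 ± 0.05), Smyd5 (0.20 ± 0.07), Hr (0.17 ± 0.09), the Polycomb subunit Ring1 (0.19 ± 0.09) and Hat1 (-0.12 ± 0.08), each with an adjusted p of 1.00 by limma.

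Between regions 3 genes of these lists passed the test. In inflexible drinkers it was 1 of 33 partners and readers and 0 in the other lists, beside 0.773% of all probe sets. In light drinkers it was 1 of 15 acetyltransferases, 1 of 17 repair and cofactor genes and 0 in the other lists, beside 3.32% of all probe sets. Chd4, a chromatin remodeller that sits with Hdac1 and Hdac2 in the NuRD complex, was 5.27 in inflexible striatum and 5.01 in inflexible prefrontal cortex (0.26 ± 0.05, limma, adjusted p = 0.0441). In light drinkers it was 5.27 and 5.10 (0.17 ± 0.05, limma, adjusted p = 0.104). Kat2b was 4.82 in light striatum and 4.55 in light prefrontal cortex (0.27 ± 0.05, limma, adjusted p = 0.0153). Ahcy was 4.91 in light striatum and 4.58 in light prefrontal cortex (0.33 ± 0.07, limma, adjusted p = 0.0280).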

How the data were processed

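The authors deposited 1 table of log2 values for 45101 probe sets on 12 one-colour arrays made, per the submitters' processing notes, with RMA (background correction, normalisation and probe summary) and affy, neither with a version. Base 2 was inferred, as the lowest value was 2.76 and medians lay near 3.12. Values are relative and their precision is limited by the number of arrays; no reads or counts are involved.

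Probe sets were named through the platform annotation (34945 with a single symbol, 932 with several, 9160 with none). All 63 members matched RefSeq and 0 symbols changed, and 1 probe set of Kdm6b that also carries another symbol was left out. After 64 control probe sets were removed, limma 3.58.1 in R 4.3.3 (lmFit, eBayes, 4 group means, 12 arrays, 8 residual degrees of freedom) was fitted to 45037 probe sets. P-values were two-sided, adjusted by Benjamini-Hochberg over all of them, and called under 0.05. The labels state no test. The script was tested on simulated data. Tables and figures used Python 3.11.15, pandas 2.3.3 and matplotlib 3.10.9. Promoter windows came from RefSeq (GRCm38.p6).

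Values on every array are given for the 8 members above 4 with the smallest p in each region's drinking class comparison and for the highest-level member of each family; other members were named from counts of 5 or fewer, or after their values were seen. Differences of further probe sets above 4 are not given for every named gene, among them Kmt2e, Hdac11 and Kdm1a between drinking classes and Kdm6b in prefrontal cortex. From each related list the called genes or those with the smallest p were named. The members, families and lists were chosen with earlier results of these data known.

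No 2 of the 66 pairs of arrays were identical. Replicate numbers come from the labels. Over 10852 probe sets above 4, same-numbered arrays of the classes deviated together in prefrontal cortex (r = 0.741, 0.849 and 0.622 for replicates 1, 2 and 3). The reported fit did not pair them, and the replicate number entered only as a block in alternatives. The highest correlation with an array of another number was 0.796, -0.773 and 0.622, so only replicate 2, the high-control array of both groups, stood clearly with its own number. In striatum same-numbered arrays did not deviate together (0.250, 0.262 and -0.637). Alternatives were quantile normalisation, median centring, a filter above 4, gene means, the replicate number or the control split as a block, arrays of one control level alone, array weights, trended variance, only the groups compared and leaving out each array. A fit of prefrontal arrays alone with the replicate block was chosen after seeing the data.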

Additional observations from a re-analysis of the deposited data

How the results depend on the processing

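With the replicate number as a block, 0 members were called in all 5 comparisons. Among all probe sets that fit called 0.457% in prefrontal cortex, 0.00888% in striatum and 0.113% for the difference between regions. Between regions it called 0.540% in inflexible and 2.57% in light drinkers. The members' medians were -0.05 in prefrontal cortex and 0.01 in striatum, equal to those without the block because the numbers are balanced over groups. Prefrontal arrays alone with that block also called 0 members, beside 2.00% of all probe sets, so the block changed no call of a member. In prefrontal cortex 23 of 24 alternatives called 0 members, beside at most 2.76% of all probe sets, and array weights called 3 (6.56%). Over the alternatives the prefrontal median lay between -0.0921 (filter on low values) and -0.0130 (without replicate 2 of inflexible prefrontal cortex). The filter kept only the 36 members above 4, whose median was also -0.0921 in the reported fit. In striatum and for the difference between regions all 23 and 22 alternatives called 0, beside at most 0.0755% and 1.78% of all probe sets. These counts and the prefrontal one include the fit on high-control arrays alone, where each group but inflexible striatum held 1 array. With so little left to estimate the spread, that fit could not be expected to call any gene, and its result adds nothing to the counts. The striatal median of 0.01 became 0.05 with the control split as a block (0.0476) and on high-control arrays alone (0.0487), where arrays of a group differ by 0.0411 (SD); all other alternatives moved it less. Between regions in inflexible drinkers, 1 member was called with gene means (Kdm4b, beside 1.70% of all genes). With the control split as a block 2 were called (2.16% of all probe sets). When 1 array was left out 0 to 2 were called (0.731% in the fit that called 2). In light drinkers 4 members were called with the control split as a block (7.00% of all probe sets) and 4 on low-control arrays alone (8.38%). Array weights called 5 (10.4%), which were Dnmt3a, Hdac1, Hdac4, Hdac9 and Kmt2c. Leaving out 1 array called 0 to 1 (2.34% in the fit that called 1). The cause of these changes was not tested. Of 1122 repeats of the 48 named differences, 14 passed the test where the reported one had not, and 60 changed sign while called in neither fit. Low signal limits the 27 members at or below 4, where differences are compressed.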
